A study of Mus musculus with 6 samples.

Results

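The CD45-positive cells of control mouse colon tumours were compared between 1 week and 2 weeks, using the libraries titled 1wk_Control and 2wk_Control. A barcode was kept when it had at least 200 detected genes and at most 10% of its UMIs (unique molecular identifiers, each standing for 1 captured RNA molecule) from mitochondrial genes. This left 10275 of the 33862 barcodes kept in the whole series, 5492 at 1 week and 4783 at 2 weeks. The series compares control tumours with tumours labelled SOX17KO, in which the transcription factor SOX17 is knocked out, and holds 6 droplet libraries: a timed pair of each genotype and an untimed pair. The tumours of 5 mice were pooled per condition, and live cells that lacked the epithelial protein EpCAM and carried the leukocyte protein CD45 were sorted. The genotype of the timed libraries stands only in their titles, and the event from which the weeks are counted, the strain, and whether 5 mice were pooled at each time are not given in the sources used here. Each time point is 1 library, so no difference between the weeks has a replicate check, and every interval covers counting error only.

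Tumour macrophages come largely from blood monocytes that enter the tissue and mature there, and macrophages settled earlier carry their own genes, such as the hyaluronan receptor Lyve1 and the folate receptor Folr2. CD8 T cells kill target cells with granzymes and perforin, and T cells that meet their antigen repeatedly display inhibitory receptors such as PD-1 and LAG-3. Type I interferons act through transcription factors that bind a short promoter motif, the interferon-stimulated response element, in genes such as Isg15 and Ifit1.

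The 2 control libraries held 37114976 UMIs at 1 week and 27480696 at 2 weeks after filtering. A median barcode had 5753.5 UMIs and 2158.5 genes at 1 week, against 4162 UMIs and 1859 genes at 2 weeks. Mitochondrial genes gave a median of 2.27% and 2.91% of UMIs. The filters removed 87 and 202 barcodes. Only 6 barcode sequences occurred in both libraries, 0.12% of the smaller one. Each barcode was placed by 12 panels of 6 marker genes: it joined the panel with the most detected genes if at least 2 were detected and no other panel had as many. Barcodes with an even count were called tied, and the rest unassigned.

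Between the weeks, the leukocyte fraction moved from one dominated by monocytes and macrophages to one in which T cells were the most frequent class. The monocyte or macrophage gate held 3790 barcodes at 1 week, 69.0% of the library (Clopper-Pearson 95% interval 67.8 to 70.2), and 1231 at 2 weeks, 25.7% (24.5 to 27.0). The T cell gate held 191 barcodes, 3.48% (3.01 to 3.997), and 2272 barcodes, 47.5% (46.1 to 48.9). As a log2 odds ratio of 2 weeks over 1 week, these were -2.68 (-2.81 to -2.56) for monocytes or macrophages and 4.65 (4.42 to 4.87) for T cells. A share is relative to the other sorted cells, so fewer cells of a type and more cells of the other types cannot be told apart. The T cell gate supplied 58.1% of all UMIs at 2 weeks and 5.01% at 1 week, and the monocyte or macrophage gate supplied 19.1% and 66.7%. A median T cell barcode had 5056.5 UMIs at 2 weeks and 8356 at 1 week. The monocyte or macrophage medians were 3807 and 5867.

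The smaller gates differed less. NK cells, innate killers that share granzymes with CD8 T cells, were 170 barcodes (3.10%) at 1 week and 212 (4.43%) at 2 weeks, with a log2 odds ratio of 0.54 (0.24 to 0.83). Plasmacytoid dendritic cells, the main producers of type I interferon, were 18 barcodes (0.328%) and 50 barcodes (1.05%), a log2 odds ratio of 1.66 (0.89 to 2.43). Conventional dendritic cells, which present antigen to T cells, numbered 171 barcodes in each library, and the interval of their log2 odds ratio of 0.21 included no difference (-0.10 to 0.52). Neutrophils were 288 barcodes (5.24%) and 193 (4.04%), a log2 odds ratio of -0.40 (-0.66 to -0.13) whose sign depended on the gate: it was 0.15 when barcodes with any monocyte or macrophage panel UMI were left out. B cells were 24 and 21 barcodes. Plasma cells were 5 barcodes at 1 week and 0 of 4783 at 2 weeks, where the Clopper-Pearson interval reaches 0.0771%. Fibroblasts, which the CD45 sort should remove, were 168 barcodes (3.06%) and 71 (1.48%). Tied barcodes made up 4.62% and 3.01%, and unassigned ones 6.83% and 8.09%.

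**Figure D1:**
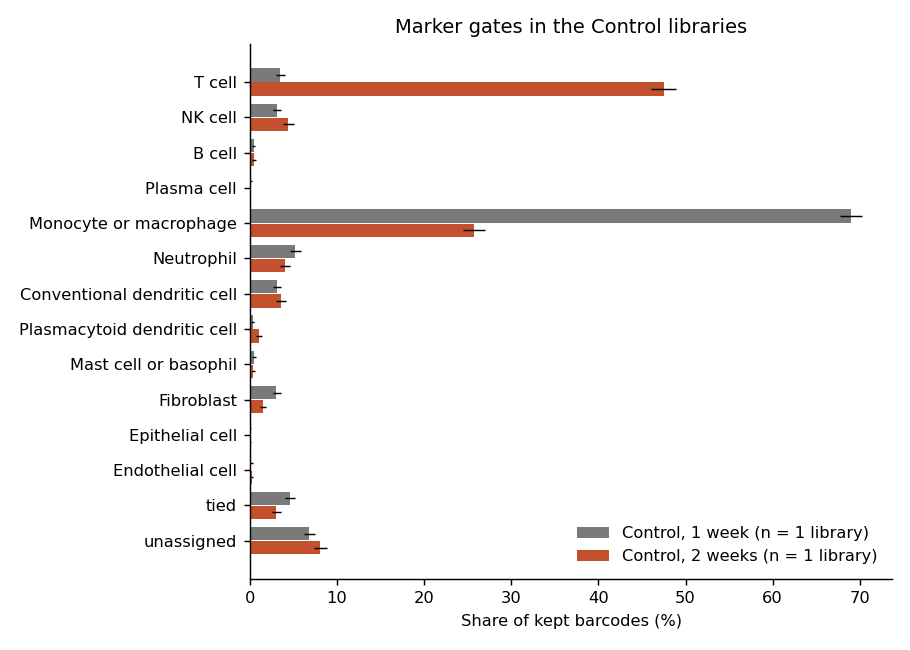
Share of kept barcodes in each marker gate (x axis, percent) in the control libraries at 1 week (grey) and 2 weeks (orange), 1 library each; lines are Clopper-Pearson 95% intervals. The monocyte or macrophage bar is 69.0% at 1 week and 25.7% at 2 weeks, and the T cell bar is 3.48% and 47.5%.

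The libraries of SOX17KO tumours share no sample with the control pair. Their T cell gate was 2.996% of barcodes at 1 week and 27.8% at 2 weeks, with a log2 odds ratio of 3.64, and their monocyte or macrophage gate was 64.7% and 32.4%, with a log2 odds ratio of -1.94. B cells stood apart between the genotypes: 25 barcodes became 186 in SOX17KO (0.342% and 6.17%), against 24 and 21 in control. These differences between genotypes were not tested, since each value rests on 1 library.

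Within the T cell gate, CD8 cells made up more of the gate at 2 weeks. Barcodes with UMIs of Cd8a or Cd8b1, the chains of the CD8 coreceptor, and none of Cd4 were 25 of 191 at 1 week (13.1%) and 1133 of 2272 at 2 weeks (49.9%). Barcodes with Cd4 alone were 56 (29.3%) and 485 (21.3%), and those with neither were 109 (57.1%) and 597 (26.3%). The T cell gate was deeper at 1 week, with a median of 8356 UMIs against 5056.5 at 2 weeks. After each barcode was thinned to 1000 UMIs, 3.66% (1.49 to 7.41) had a Cd8a or Cd8b1 UMI at 1 week and 30.7% (28.8 to 32.6) at 2 weeks, against 0.136% and 0.507% of monocytes or macrophages, which should lack CD8. Unthinned, the shares were 13.6% and 52.4%. Cd4 was found in 6.81% (3.67 to 11.4) and 10.8% (9.57 to 12.2) of thinned T cells, and in 29.8% and 23.9% unthinned, so its direction depended on the depth. In neutrophils, which should lack Cd4, the unthinned shares were 0.694% and 0.518%. Foxp3, the defining factor of regulatory T cells, was found in 4.19% (1.83 to 8.09) and 2.44% (1.84 to 3.16) of thinned T cells and in 23.6% and 6.21% unthinned. Gamma-delta T cells, seen by the receptor gene Trdc, were 3.14% and 2.39% thinned and 9.95% and 4.53% unthinned.

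More of the T cell gate was cycling at 2 weeks, though not in every coreceptor set. A UMI of Mki67 or Top2a, genes transcribed in dividing cells, was found in 5.76% (2.91 to 10.1) of thinned T cells at 1 week and 21.3% (19.7 to 23.1) at 2 weeks. The shares for conventional dendritic cells were 3.51% (1.30 to 7.48) and 11.2% (6.86 to 16.9). The shares for NK cells were 3.53% (1.31 to 7.52) and 6.73% (3.73 to 11.0), and the intervals of the 2 times overlapped in both of these gates. Those of monocytes or macrophages were 2.09% and 1.77%. Per 1000000 UMIs of the full T cell gate, Mki67 stood at 76.5 and 404 with CD8 only and at 31.7 and 330 with Cd4 only. In barcodes with neither coreceptor it was lower at 2 weeks, at 100 and 58.2, as was Top2a, at 154 and 84.6. The part of the gate's make-up in its cycling share was not tested.

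**Figure D2:**
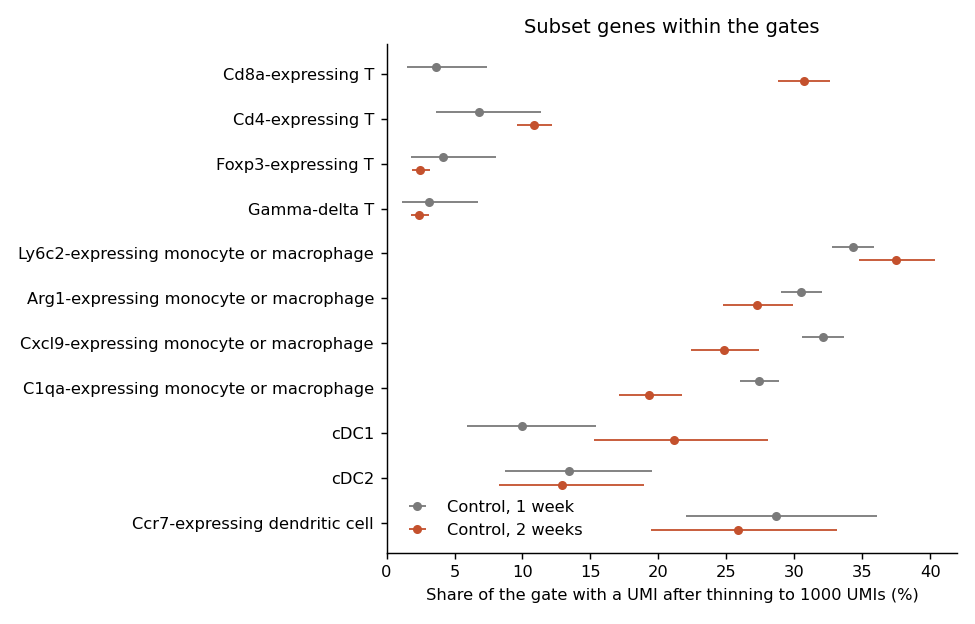
Share of each gate with a UMI of the named subset genes after thinning every barcode to 1000 UMIs (x axis, percent), control at 1 week (grey) and 2 weeks (orange), 1 library each; lines are Clopper-Pearson 95% intervals. The widest gap is for Cd8a-expressing T cells, 3.66% at 1 week and 30.7% at 2 weeks.

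Over all kept barcodes, each gene's summed UMIs per 1000000 UMIs (CPM) were compared. A gene was counted as past the fold when its levels differed at least 2-fold, its 95% interval excluded equal levels and it had at least 50 UMIs over both libraries. Of 13645 genes with enough UMIs, 2834 were past the fold higher at 2 weeks (20.8%) and 1369 lower (10%). The median gene had a log2 ratio of 0.26, and scaling the libraries by that median gene gave 2003 higher and 2008 lower. The 24 genes named by rank, 12 in each direction, were past the fold under both scalings.

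The genes highest by rank at 2 weeks over all barcodes included those of CD8 lymphocytes. Cd8a (chr6:71373427-71379173, GRCm38) stood at 5.31 CPM at 1 week and 224 at 2 weeks, a log2 ratio of 5.40 (5.20 to 5.61). Pdcd1, which encodes PD-1, stood at 3.39 and 135 CPM (log2 5.32, 5.06 to 5.59). Gzmk, a granzyme of memory-like CD8 T cells, stood at 1.13 and 47.3 CPM (log2 5.39, 4.94 to 5.87). Macrophage chemokine genes, Pf4, Ccl8, Ccl12 and Ccl24, were among the lowest. Pf4 stood at 455 and 7.53 CPM, a log2 ratio of -5.92 (-6.12 to -5.72). Ccl8, whose product draws in monocytes, stood at 741 and 28.0 CPM (log2 -4.73, -4.83 to -4.62). Ccl24, whose product draws in eosinophils, stood at 1696 and 104 CPM (log2 -4.02, -4.08 to -3.97). Folr2 stood at 19.7 and 0.801 CPM (log2 -4.62, -5.30 to -4.01).

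Tff1 (chr17:31161395-31165277), which encodes a trefoil peptide secreted by stomach mucosa, had 0 UMIs at 1 week and 1355 at 2 weeks, at least 610-fold higher against a floor of 3 counts, in 397 barcodes of which 366 lay in the T cell gate. Other ranks rested on few barcodes. Gzmf, a granzyme gene of a cluster on chromosome 14, had 4 UMIs in 3 barcodes and 1395 UMIs in 42 barcodes. Mucl1 had 605 UMIs at 1 week, 66.4% of them in 1 barcode, and none at 2 weeks. Jchain, which joins secreted antibodies and belongs to plasma cells, had 1735 UMIs at 1 week, 56.0% of them in 1 barcode, and 8 at 2 weeks. Igha, the constant region of immunoglobulin A, was outside the naming rule and chosen after its values were seen: it had 5010 UMIs at 1 week and 2 at 2 weeks, against 9573 and 4294 in the SOX17KO libraries.

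**Figure D3:**
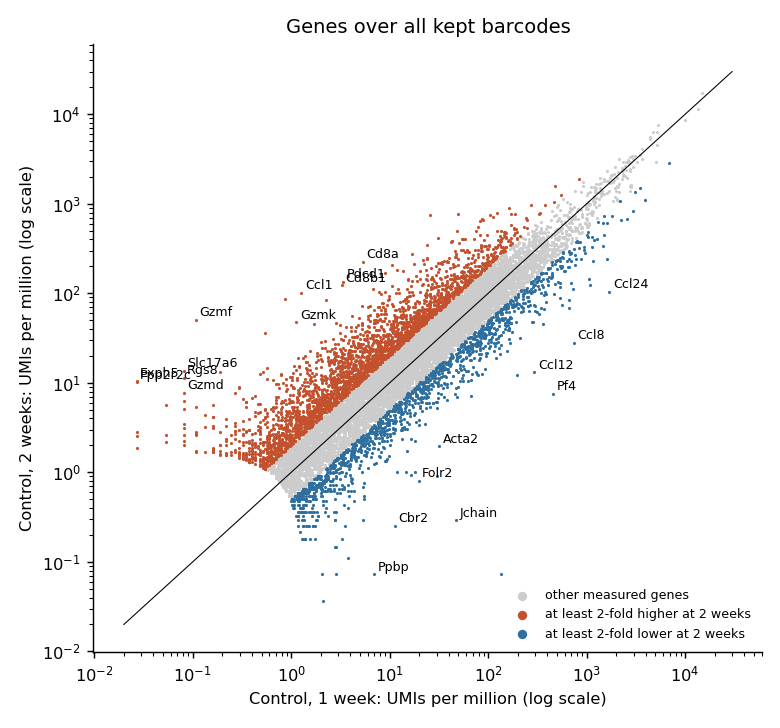
CPM of each measured gene over all kept control barcodes at 1 week (x axis, log scale) and 2 weeks (y axis, log scale), 1 library each; genes with 0 UMIs in either library are not drawn, the line marks equal levels, and names mark the genes named by rank. Orange points are at least 2-fold higher and blue points at least 2-fold lower at 2 weeks; Cd8a is at 5.31 and 224, Pf4 at 455 and 7.53.

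A change in the proportions of the gates alone moves these sums. Holding each gate's average profile over both libraries and changing only the gates' shares of UMIs gave a 2-fold difference in the same direction for 1214 of the 2834 genes higher at 2 weeks (42.8%) and for 438 of the 1369 genes lower (32.0%), and a difference of the opposite sign for 54 and 28. The comparisons within gates below hold the gate fixed.

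Within the monocyte or macrophage gate, 6 of 10 genes of alternatively activated macrophages, 4 of 6 chemokines for monocytes or eosinophils and all 4 measured chemokines for neutrophils were lower at 2 weeks. Of 10752 genes measured, 246 were past the fold higher (2.29%) and 345 lower (3.21%), with a median log2 ratio of 0.05. The panel genes, which chose the barcodes, together stood at 2602 and 2514 CPM. A median barcode of the gate had 5867 UMIs at 1 week and 3807 at 2 weeks. T cell panel genes were low in it, at 48.6 and 71.9 CPM in sum.

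Ccl8 (chr11:82115185-82116799) came first by rank among the lower genes, at 961 CPM at 1 week and 17.4 at 2 weeks, a log2 ratio of -5.79 (-6.10 to -5.49), with UMIs in 785 barcodes at 1 week and 22 at 2 weeks. Pf4 stood at 596 and 24.8 CPM (log2 -4.59, -4.85 to -4.34). Of the 10 genes of alternatively activated macrophages, 6 were lower, 1 was higher and the median log2 ratio was -1.20. Among them, Lyve1 had 180 UMIs in 54 barcodes at 1 week and none at 2 weeks, at least 12.7-fold lower. Folr2 stood at 27.5 and 2.48 CPM (log2 -3.47, -4.39 to -2.69), Mrc1, the mannose receptor, at 734 and 280 CPM (log2 -1.39, -1.47 to -1.31), and the haemoglobin scavenger Cd163 at 5.66 and 0.954 CPM. Arg1, which breaks down arginine, was nearly level at 1428 and 1261 CPM (log2 -0.18, -0.22 to -0.14), and its share of thinned barcodes was 30.5% and 27.3%. In NK cells, which should lack it, 6.47% and 0.962% of thinned barcodes had an Arg1 UMI. Vegfa, the endothelial growth factor on the same list, was the higher one, at 104 and 234 CPM (log2 1.17, 1.07 to 1.27).

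The chemokine lists follow the cells that the products attract, and the lists were not tested against each other. Of the 6 genes whose products attract monocytes or eosinophils, 4 were lower and the median log2 ratio was -2.06: Ccl7 stood at 670 and 74.8 CPM (-3.16, -3.31 to -3.02), Ccl12 at 392 and 56.8, Ccl24 at 2162 and 406, and Ccl2 at 1067 and 327. The other two, Ccl6 (log2 -0.21) and Ccl9 (log2 0.28), were within 2-fold. All 4 measured neutrophil attractants, Cxcl1, Cxcl2, Cxcl3 and Ppbp, were lower, with a median of -2.57. Cxcl2 had the most UMIs of these, at 1183 and 417 CPM (log2 -1.50, -1.57 to -1.44). Among 9 T cell attractants 3 were lower, Cxcl10 at 1861 and 730 CPM, Ccl17, and Ccl8, which this list holds although its product also draws in monocytes, while Cxcl9 was within 2-fold at 895 and 766 CPM (log2 -0.23, -0.27 to -0.18). The share of thinned barcodes with a Cxcl9 UMI was 32.1% (30.6 to 33.6) and 24.8% (22.4 to 27.4), and 48.4% and 37.9% unthinned. In NK cells, which should lack it, the shares were 8.24% and 0.481% thinned, and 12.4% and 0.472% unthinned at median depths of 4431 and 3631 UMIs. The background share was thus lower at 2 weeks by about as many percentage points as the share in the gate, and its part in that difference was not tested.

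Complement, class II presentation and inflammatory monocyte genes were mostly within 2-fold. None of 10 complement genes was past the fold, although the median was -0.64 and the first component's chains were lower: C1qa stood at 701 and 375 CPM (log2 -0.90, -0.97 to -0.84), with a UMI in 27.4% (26.0 to 28.9) and 19.3% (17.1 to 21.7) of thinned barcodes and 42.6% and 30.1% unthinned (NK cells 4.12% and 0% thinned, 12.9% and 0.472% unthinned). The 10 genes of class II antigen presentation had a median of 0.30, with 1 past the fold (H2-Oa), and H2-Aa stood at 3016 and 3781 CPM. Inflammatory monocyte genes had a median of 0.27 with none of 10 past the fold, and Ly6c2, a surface marker of blood monocytes, stood at 509 and 651 CPM (log2 0.36, 0.30 to 0.41). Its share was 34.3% and 37.5% thinned but 66.1% and 62.1% unthinned, so the direction of the share depended on the depth (fibroblasts 0.617% and 6.45% thinned). Of 11 genes of lipid-associated macrophages 2 were lower and 1 higher, with a median of -0.31: Fabp5, a fatty acid carrier, stood at 1093 and 216 CPM (log2 -2.34, -2.43 to -2.26) and Spp1, osteopontin, at 352 and 145, while Gpnmb was higher at 10.7 and 25.2 CPM and Trem2 was level at 109 and 103. At 1 week 1 barcode held 35.5% of the Spp1 UMIs, and whether Spp1 stays past the fold without it was not tested. For Gpnmb 1 barcode held 29.4% at 1 week and 26.5% at 2 weeks. Of 10 inflammatory cytokine genes 3 were lower, with a median of -0.23. Tnf stood at 114 and 42.9 CPM (log2 -1.41, -1.61 to -1.21), Il1a at 65.1 and 16.2 (log2 -2.00, -2.34 to -1.69), and Il23a at 5.13 and 0.763 (log2 -2.75, -4.65 to -1.36). Il1b was within 2-fold at 4341 and 3193 CPM.

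The genes highest by rank at 2 weeks in this gate included the heat shock gene Hspa1b, at 210 and 917 CPM (log2 2.12, 2.07 to 2.18), with Hspa1a at 274 and 699. Cxcr4, the receptor for CXCL12, stood at 83.6 and 307 CPM (log2 1.88, 1.78 to 1.97), and Egln3, an oxygen-sensing hydroxylase induced by low oxygen, at 27.9 and 102 CPM (log2 1.86, 1.70 to 2.03). Of the 14 hypoxia and glycolysis genes only Egln3 and Vegfa were past the fold, and the median was 0.13. Pid1 stood at 438 and 1331 CPM (log2 1.60, 1.56 to 1.65). Hspa1b was also higher in the T cell gate (127 and 554 CPM) and in the NK gate (158 and 857 CPM), and dissociation of the tissue is known to induce heat shock genes; its part in the result was not tested. Of the 15 immediate early and dissociation stress genes in the monocyte or macrophage gate, 3 were higher, Egr1 was lower and the median was 0.43.

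Genes of the type I interferon response were lower at 2 weeks in the monocyte or macrophage gate. Of 25 list genes, 13 were past the fold lower and none higher, with a median of -1.02 against 0.05 for all genes measured. The promoters of 3 lowered genes that hold the response element are shown as examples of how it sits before a start site; most of the lowered genes did not hold it there. The sequences are from RefSeq (GRCm38.p6), 150 bases upstream of the start, 5′ to 3′ along the gene's strand, with each match to the element in capitals. The element was searched as GAAA, any 2 bases and GAAA again, or on the other strand as TTTC, any 2 bases and TTTC, and matches may overlap. Isg15 lies on the minus strand, at chr4:156200819-156200968, with 3 overlapping matches that begin 78 to 66 bases upstream. Ifit1 is on the plus strand at chr19:34640739-34640888, with matches 104 and 85 bases upstream, and Ifit3 on the plus strand at chr19:34583379-34583528, with a match 122 bases upstream.
Isg15: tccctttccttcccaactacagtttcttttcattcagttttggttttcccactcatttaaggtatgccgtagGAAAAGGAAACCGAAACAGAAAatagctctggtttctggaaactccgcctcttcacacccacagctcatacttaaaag
Ifit1: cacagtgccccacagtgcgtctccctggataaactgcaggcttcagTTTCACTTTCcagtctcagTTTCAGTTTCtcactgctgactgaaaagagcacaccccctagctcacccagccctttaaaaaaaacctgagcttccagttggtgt
Ifit3: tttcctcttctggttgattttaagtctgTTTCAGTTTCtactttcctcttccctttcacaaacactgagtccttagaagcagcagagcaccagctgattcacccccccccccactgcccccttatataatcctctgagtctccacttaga

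In the 250 bases before the start, 978 of 32851 promoters (2.98%) held the motif on either strand. It was found in 10 of the 20 type I list genes with a promoter sequence (50%), in 11 of 16 genes of the interferon-gamma list (68.8%), and in 4 of the 11 type I genes lower in the monocyte or macrophage gate (36.4%). A match describes the letters and is not evidence of binding.

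Isg15, which encodes a ubiquitin-like protein, stood at 755 CPM at 1 week and 220 at 2 weeks in monocytes or macrophages (log2 -1.78, -1.87 to -1.69), with UMIs in 2969 and 480 barcodes. Ifit1, whose product binds viral RNA, stood at 96.6 and 22.9 CPM (log2 -2.08, -2.35 to -1.81), and Ifit2 at 194 and 38.2 (log2 -2.34, -2.55 to -2.14). Ifit3 stood at 52.4 and 13.2 CPM, but Ifit3 and Ifit3b are near-identical copies among which reads may be split. Irf7, the factor that amplifies the response, stood at 246 and 79.4 CPM (log2 -1.63, -1.78 to -1.49). Not all list genes were past the fold: the antiviral gene Rsad2 had a log2 ratio of -0.67 (-0.77 to -0.58) and Trim30a one of -0.39 (-0.48 to -0.30). Genes induced by interferon-gamma were nearer level, with 2 of 23 lower (Cxcl10 and Socs1, the latter at 167 and 64.7 CPM), none higher and a median of -0.37.

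In the other gates, macrophage RNA had to be reduced first. The monocyte or macrophage panel genes summed to 879 CPM in the T cell gate at 1 week and 112 at 2 weeks, to 593 and 21.8 in the NK gate, and to 939 and 327 in the neutrophil gate. In the full T cell gate 1426 of 10775 genes were past the fold higher (13.2%) and 933 lower (8.66%), in NK cells 534 (9.51%) and 432 (7.7%) of 5614, in neutrophils 166 (5.16%) and 510 (15.9%) of 3216, and in conventional dendritic cells 271 (4.18%) and 124 (1.91%) of 6490. Of the 12 genes lowest by rank at 2 weeks, 11 in T cells, 12 in NK cells and 12 in neutrophils, among them Pf4, Ccl24 and Mrc1 in T cells, Lyz2 and C1qa in NK cells and Ccl8 and Arg1 in neutrophils, were no longer past the fold once barcodes with any panel UMI were left out. That restriction, added after seeing the data, kept 70 and 1842 T cell barcodes, 122 and 197 NK cells, 69 and 86 conventional dendritic cells, and 158 and 152 neutrophils. Genes high in the monocyte or macrophage gate were not fully removed. Il1b, Cxcl2, Ccl2 and Arg1 were still past the fold lower in restricted T cells, and Il1b in restricted NK cells (log2 -5.11). The part of such RNA in the differences below was not tested. Unless stated, the values below are from these restricted gates.

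The type I interferon genes were also lower in the restricted T cell gate: 12 of 17 measured genes were past the fold lower, none was higher and the median was -1.71, against 0.19 for all 9842 genes measured, of which 855 were higher (8.69%) and 383 lower (3.89%). Isg15 stood at 203 and 16.8 CPM (log2 -3.59, -3.96 to -3.21), and Ifi27l2a, an interferon-induced mitochondrial protein gene, at 1892 and 305 CPM (log2 -2.63, -2.74 to -2.52). In the full T cell gate 20 of 23 were lower with a median of -2.23. Interferon-gamma genes were lower in restricted T cells too: of 19 measured, 9 were lower, among them Cxcl10 and the guanylate-binding protein genes Gbp2 and Gbp5, none was higher and the median was -0.89. Macrophages also carried Cxcl10 and Isg15, and the part of macrophage RNA left in this gate was not tested. In conventional dendritic cells, where 2.93% of 3922 genes were lower and 8.44% higher, 3 of 9 were lower with a median of -0.32, and Isg15 stood at 469 and 49.8 CPM (log2 -3.23, -3.80 to -2.71). In neutrophils, where 5.04% of 1549 genes were lower and 5.94% higher, 4 of 18 were lower with a median of -0.53, and Isg15 stood at 1839 and 874 CPM (log2 -1.07, -1.32 to -0.83). In NK cells, where 3.04% of 4544 genes were lower and 8.14% higher, only 5 list genes had enough UMIs, 1 was lower and the median was -0.03, so the median of -2.15 in the full NK gate did not hold there. In every gate examined, no gene of the list was past the fold higher.

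**Figure D4:**
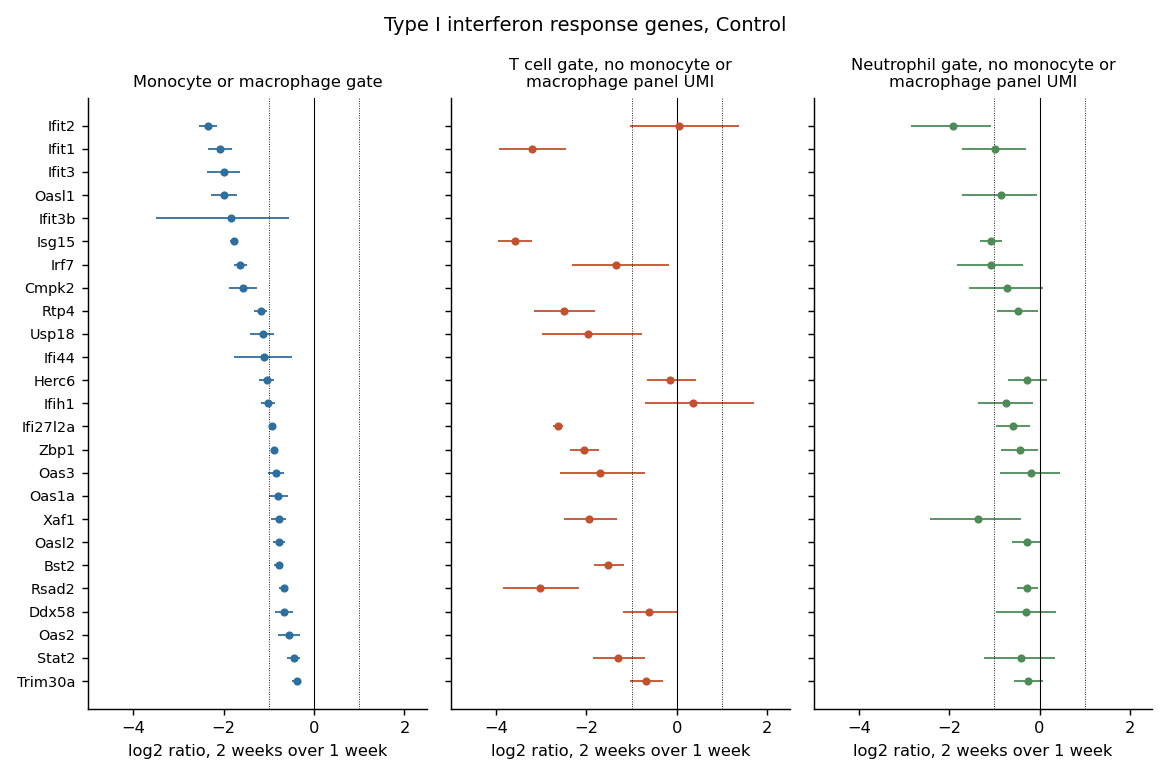
Log2 ratio of CPM at 2 weeks over 1 week (x axis) for type I interferon response genes (y axis) in the monocyte or macrophage gate and in the T cell and neutrophil gates without monocyte or macrophage panel UMIs, control, 1 library each time; lines are 95% counting intervals, dotted lines mark 2-fold, and genes without a point had too few UMIs. Isg15 lies at -1.78, -3.59 and -1.07, and no gene lies to the right of the 2-fold line.

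T cells carried more transcripts of inhibitory receptors and of some effector genes at 2 weeks. Of 10 inhibitory receptor and exhaustion genes, 5 were higher (Pdcd1, Lag3, Havcr2, Entpd1 and Btla), none was lower and the median log2 ratio was 1.24. Lag3 had 2 UMIs (4.66 CPM) at 1 week and stood at 134 CPM at 2 weeks (log2 4.85, 2.99 to 7.90). Pdcd1 stood at 21.0 and 225 CPM (3.43, 2.499 to 4.56), and Havcr2, which encodes TIM-3, at 25.6 and 224 (3.13, 2.29 to 4.13). Neither Ctla4 nor Tox was past the fold: Ctla4, the receptor that competes for B7 ligands, stood at 785 and 594 CPM (log2 -0.40, -0.56 to -0.24), and Tox, a factor of exhausted T cells, at 608 and 417 (log2 -0.55, -0.73 to -0.36). In the full gate both had small positive ratios, 0.50 for Ctla4 and 0.14 for Tox. Ctla4 also differed by set: in barcodes with CD8 only it stood at 43.2 and 458 CPM in the full gate (log2 3.40, 2.63 to 4.32) and at 197 and 466 in the restricted gate, in 7 and 3324 UMIs (log2 1.24, 0.20 to 2.56). In barcodes with Cd4 only it stood at 767 and 940 CPM in the full gate but at 2180 and 1140 in the restricted gate (log2 -0.93, -1.13 to -0.73).

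The cytotoxic genes did not move as a block. Of 14 measured, 5 were higher and 2 lower, with a median of 0.79. Gzmk had 1 UMI at 1 week and stood at 85.5 CPM at 2 weeks (log2 5.20, 2.72 to 10.50), Prf1, the pore-forming perforin, stood at 30.3 and 167 CPM (log2 2.47, 1.69 to 3.38), and Gzma at 170 and 378 CPM (log2 1.15, 0.82 to 1.51). Gzmb, the main granzyme of activated killers, stood at 2120 and 1005 CPM (log2 -1.08, -1.17 to -0.98), whereas in the full gate it was 830 and 918 CPM. Its direction depended on the set. In restricted barcodes with CD8 only Gzmb was higher, at 394 and 1357 CPM (log2 1.78, 1.04 to 2.66). Few CD8 barcodes were left there at 1 week, as given below. In CD8 barcodes of the full gate Gzmb was within 2-fold, at 745 and 1303 CPM. Gzmb was lower in restricted barcodes with Cd4 only, at 3559 and 235 CPM (log2 -3.92, -4.12 to -3.72). It was also lower in those with neither, at 1818 and 524 CPM (log2 -1.79, -1.95 to -1.64). In the full gate these 2 sets stood at 924 and 205 CPM and at 815 and 465 CPM. At 1 week the restricted sets divide only 70 barcodes. Ifng stood at 175 and 290 CPM (log2 0.73, 0.40 to 1.08), within 2-fold, but its sets in the full gate differed. Ifng was lower in CD8 barcodes, at 695 and 259 CPM, with its 1-week UMIs in 6 barcodes. With Cd4 only it was higher, at 45.8 and 596 CPM, and with neither it stood at 94.2 and 116. Gzma stood at 532 and 392 CPM with CD8 only, in 2 barcodes at 1 week, and at 104 and 15.8 with Cd4 only. It was higher only in barcodes with neither, at 129 and 574 CPM. Chemokines of activated T cells were higher: Ccl4 stood at 81.6 and 1141 CPM (log2 3.81, 3.33 to 4.33), Ccl3 at 23.3 and 279, and Ccl5 at 934 and 2524. The signalling regulator Rgs16 stood at 6.99 and 334 CPM (log2 5.58, 4.03 to 7.86), with UMIs in 5 barcodes of the full gate at 1 week and 999 at 2 weeks.

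CD8 barcodes were 13.1% of the T cell gate at 1 week and 49.9% at 2 weeks, so each set was also compared with itself, a comparison added after seeing the data. Within the 25 and 1133 barcodes with CD8 only in the full gate, Pdcd1 stood at 39.9 and 248 CPM (log2 2.63, 1.83 to 3.59), Havcr2 at 56.5 and 269, Prf1 at 39.9 and 205, and Rgs16 at 9.98 and 383. Lag3 had 0 UMIs there at 1 week and stood at 111 CPM at 2 weeks. Within the 56 and 485 barcodes with Cd4 only, Pdcd1 stood at 19.4 and 252 CPM (log2 3.70, 2.85 to 4.71), Lag3 at 8.81 and 226, Havcr2 at 65.2 and 228, and Rgs16 at 1.76 and 344. Pdcd1, Lag3, Havcr2 and Rgs16 were thus higher at 2 weeks within both sets, while the interval of Prf1 in Cd4 barcodes, 26.4 and 40.9 CPM, included equal levels (log2 0.63, -0.14 to 1.504). The full gate held macrophage RNA at 1 week, at 1117 and 93.0 CPM of the monocyte or macrophage panel in CD8 barcodes, and the restriction left 6 and 927 CD8 barcodes, in which Pdcd1 had 2 UMIs at 1 week and stood at 261 CPM at 2 weeks (log2 2.21, 0.36 to 5.26).

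**Figure D5:**
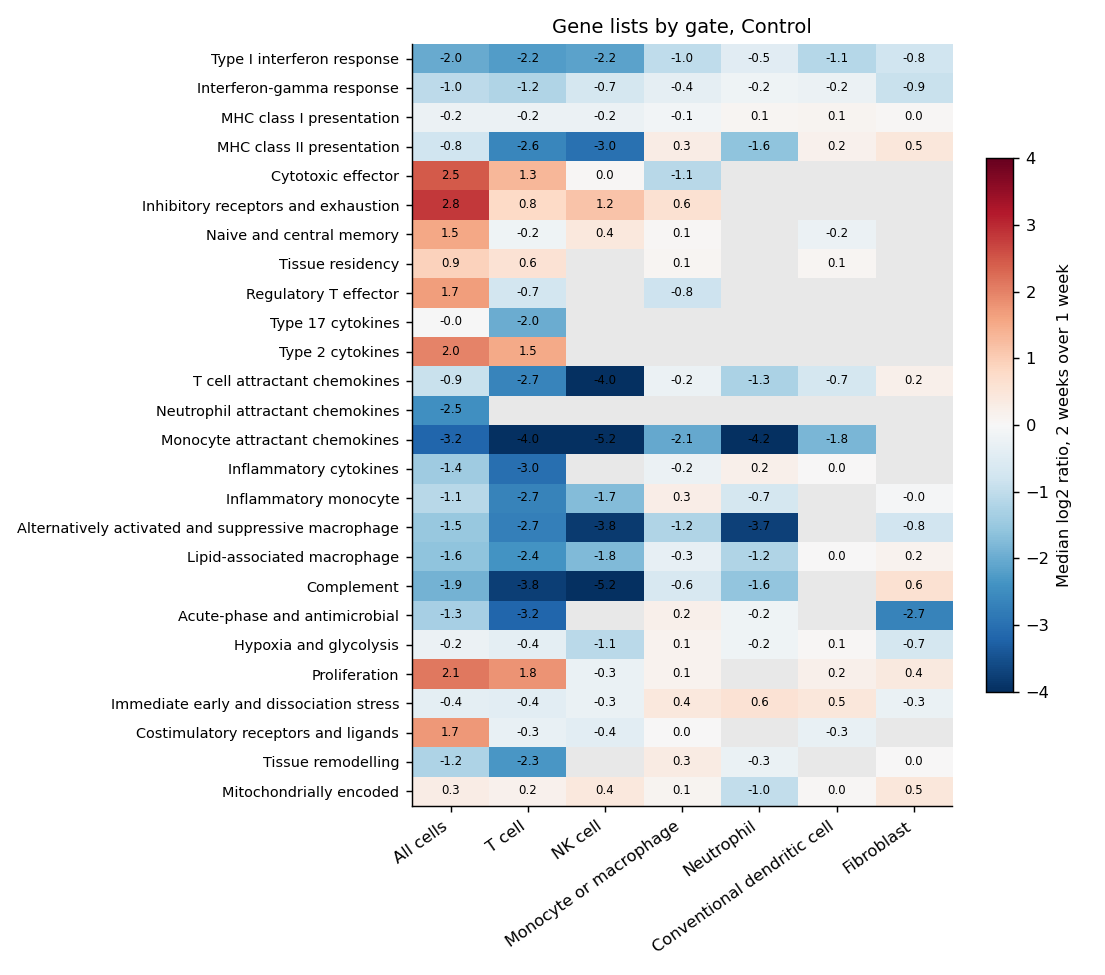
Median log2 ratio of CPM at 2 weeks over 1 week for each gene list (rows) over all kept barcodes and within each full gate (columns), control, 1 library each time; grey cells have fewer than 5 measured members. Type I interferon genes have negative medians in every column, from -0.46 in neutrophils to -2.23 in T cells; macrophage lists in the T cell, NK cell and neutrophil columns stand beside higher macrophage panel levels at 1 week.

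At 2 weeks the full T cell gate held 1133 CD8 barcodes, 485 Cd4 barcodes and 597 with neither, at median depths of 6252, 5323 and 3246 UMIs, so levels are given as CPM; a barcode with neither may also be one too shallow to show a coreceptor. Tff1 stood at 94.3 CPM in CD8 barcodes, 89.5 in Cd4 barcodes and 13.4 in those with neither. Pdcd1 stood at 248, 252 and 63.3 CPM, and Lag3 at 111, 226 and 52.8. Gzmk stood at 117 CPM in CD8 barcodes and 13.1 in Cd4 barcodes. In the restricted gate Ccl1, a chemokine for CCR8, had 0 UMIs at 1 week and stood at 142 CPM at 2 weeks, at least 20.3-fold higher, and Tff1 had 0 UMIs and stood at 70.8 CPM, at least 10.1-fold higher. Gzmf stood at 285 CPM in barcodes with neither coreceptor but in only 3 of them (0.503%), and at 27.2 CPM in CD8 barcodes, in 27 of them (2.38%).

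Genes of regulatory and type 17 T cells were lower in the restricted T cell gate as a whole. Of 10 regulatory T effector genes, 7 were lower and 1 higher, with a median of -1.59. Foxp3 stood at 86.2 and 19.8 CPM (log2 -2.12, -2.63 to -1.58), Il2ra, the high-affinity interleukin-2 receptor chain, at 862 and 227 (log2 -1.93, -2.08 to -1.77), and Tnfrsf4, the costimulatory receptor OX40, at 771 and 188 (log2 -2.04, -2.20 to -1.86). The higher member was Il10, with 2 UMIs at 1 week and 62.4 CPM at 2 weeks (log2 3.74, 1.89 to 6.79). CD8 barcodes were a larger part of the gate at 2 weeks, which lowers such values over the whole gate. Within sets of the full gate, Foxp3 stood at 82.9 and 41.8 CPM in barcodes with Cd4 only. It was nearly level in those with neither coreceptor, at 51.2 and 45.7 CPM. The part of the make-up in the list results was not tested. All 5 measured genes of the type 17 list were lower, with a median of -2.49. Il17a stood at 60.6 and 12.3 CPM (log2 -2.30, -2.91 to -1.63) and Il23r, a receptor that sustains such cells, at 83.9 and 11.7 (log2 -2.84, -3.38 to -2.26). Il17a UMIs in the full gate came from 8 barcodes at 1 week and 14 at 2 weeks. Of 16 proliferation genes, 8 were higher and none lower (median 0.95), with Mki67 at 119 and 342 CPM. The 8 genes of naive and central memory T cells had a median of -0.28 with none past the fold, and their factor Tcf7 stood at 103 and 114 CPM.

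In NK cells, genes of activation moved in both directions. Of 11 cytotoxic genes measured, 2 were higher and 2 lower, with a median of -0.25. Gzmb stood at 2468 and 670 CPM (log2 -1.88, -2.02 to -1.74), Ifng at 579 and 189 (log2 -1.62, -1.90 to -1.34), and Xcl1, a chemokine that attracts type 1 dendritic cells, at 1530 and 492 (log2 -1.64, -1.81 to -1.47). Xcl1 belongs to the tissue residency list, where 1 of 4 genes was higher and 1 lower. The higher cytotoxic genes were Gzmc, at 82.3 and 429 CPM, and Gzmf, at 1.65 and 226, with 69.9% and 98.9% of their UMIs in the full gate at 2 weeks in 1 barcode. Prf1 was level at 642 and 577 CPM (log2 -0.15, -0.35 to 0.05). Of 6 inhibitory receptor genes 2 were higher, Tigit at 19.7 and 67.0 CPM (log2 1.76, 0.84 to 2.80) and Ctla4 at 21.4 and 79.4, and 1 was lower, Cd160 at 64.2 and 29.8 CPM (log2 -1.11, -1.90 to -0.34). The cyclin gene Ccnd3 stood at 252 and 757 CPM (log2 1.59, 1.33 to 1.85). Xcl1 was also lower in restricted T cells, at 550 and 177 CPM (log2 -1.63, -1.83 to -1.43).

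More conventional dendritic cells had a UMI of the type 1 genes Xcr1 or Clec9a by thinned shares: 9.94% (5.90 to 15.4) at 1 week and 21.2% (15.3 to 28.1) at 2 weeks. Unthinned, the shares were 40.4% (32.9 to 48.1) and 46.8% (39.1 to 54.6), at median depths of 9021 and 7819 UMIs (NK cells, unthinned at 1 week, 1.76%). The intervals of the 2 times overlapped, narrowly when thinned. Both genes, and Cd209a of type 2 cells, belong to the panel that chose the gate, so their shares and levels depend on the gating. Type 2 cells were 13.5% and 12.9% thinned. In the full gate Xcr1, the receptor for XCL1 on type 1 cells, stood at 59.8 and 172 CPM (log2 1.52, 1.18 to 1.87), while Cd209a of type 2 cells stood at 211 and 186 CPM. In the restricted gate Tlr3, a sensor of double-stranded RNA in type 1 cells, stood at 24.1 and 130 CPM (log2 2.43, 1.63 to 3.33), and Cadm1, an adhesion molecule of the same cells, at 172 and 543 (log2 1.66, 1.35 to 1.99). The CCR4 ligands were lower: Ccl17 stood at 1030 and 127 CPM (log2 -3.02, -3.37 to -2.69) and Ccl22 at 1022 and 382 (log2 -1.42, -1.64 to -1.21). Fabp5 was lower here as in macrophages, at 7418 and 1219 CPM.

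Neutrophils carried more Thbs1, which encodes the matrix protein thrombospondin, at 897 and 3259 CPM (log2 1.86, 1.65 to 2.07), and more Cxcr4, a receptor that ageing neutrophils display, at 333 and 851 CPM (log2 1.35, 0.99 to 1.73). Of 7 inflammatory cytokine genes measured 2 were lower, with a median of -0.17: Il1a stood at 1373 and 627 CPM (log2 -1.13, -1.43 to -0.85) and Il23a at 284 and 112. Il1b was level at 21236 and 20408 CPM, and Tnf stood at 2266 and 2011. Of 7 acute-phase and antimicrobial genes 3 were lower, with a median of -0.65: Wfdc17 stood at 3271 and 1164 CPM (log2 -1.49, -1.70 to -1.29), Lcn2, which binds bacterial iron carriers, at 417 and 196, and haptoglobin Hp at 406 and 196. In the full gate S100a8 (8360 and 8399 CPM) and S100a9 (10515 and 10457 CPM) were level too, but both belong to the panel that chose the barcodes. The full gate's median depth was 1950.5 and 1330 UMIs.

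The fibroblast gate, 168 and 71 barcodes that passed the CD45 sort, held T cell RNA at 2 weeks: the T cell panel summed to 43.7 and 361 CPM, and 4 of 4 measured panel genes were higher. The T cell gate in turn held more fibroblast panel RNA at 2 weeks, 6.45 and 115 CPM. Of 7506 genes in the fibroblast gate, 439 were higher (5.85%) and 332 lower (4.42%). The complement gene C3 stood at 1082 and 3280 CPM (log2 1.60, 1.52 to 1.68), and Acta2, smooth muscle actin, at 365 and 42.6 (log2 -3.10, -3.70 to -2.56). The inflammatory products Ptgs2 (598 and 97.4 CPM), Il6 (235 and 60.9) and Ccl2 (3864 and 1152) were lower. Themis and Gzmb, T cell genes, were among the higher ones, and the part of T cell RNA in these results was not tested.

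Set beside SOX17KO, most of the control differences had the same sign. Over all barcodes 2803 of the 2834 genes higher in control were also higher in SOX17KO, 1843 of them past the fold, and 1131 of the 1369 lower genes were lower, 377 of them past the fold. Within the monocyte or macrophage gate 232 of 246 higher and 274 of 345 lower genes had the same sign, and within the full T cell gate 1345 of 1426 and 894 of 933. The share of all measured genes with each sign in SOX17KO is not given here, so these counts have no background beside them. Both genotypes also shifted from macrophages to T cells, and the part of that shift in the counts over all barcodes was not tested. In macrophages Ccl8 had a log2 ratio of -5.79 in control and -2.98 in SOX17KO, and Ifit1 of -2.08 and -0.79. Ccl24 had -2.41 in control and -3.41 in SOX17KO. In the full T cell gate Ifng had 0.87 in control and -1.79 in SOX17KO, and Ccl3 1.87 and -1.29. The differences between the genotypes were not tested.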

How the data were processed

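The data were droplet single-cell libraries of sorted CD45-positive cells from pooled mouse colon tumours. The deposited matrices hold raw UMI counts per gene and barcode; they were made with Cell Ranger 7.0.1 per the file headers, while the submitters' processing notes name Cell Ranger 6.0.1 and mm10. The annotation release and the handling of intronic reads are not given in the sources used here. Each matrix lists 32285 genes; 40 entries that share a symbol were summed. From these counts, barcodes with at least 200 genes and at most 10% mitochondrial UMIs were kept, gated by 12 marker panels, and summed per gate. Doublet scores marked 249 and 199 barcodes, which were kept in the values reported and left out in an alternative.

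With 1 library a time point no test was run. Ratios of CPM have exact conditional binomial 95% intervals and shares have Clopper-Pearson intervals. A gene with 0 UMIs in a library was set to a floor of 3 counts. The named genes are the 12 in each direction whose interval bound lies furthest from equal levels, among genes with at least 100 UMIs, leaving out immunoglobulin, T cell receptor, mitochondrial, ribosomal, haemoglobin, Xist, Y-linked, Gm and Rik genes and, within gates, the panel genes; from each list up to 4 members past the fold and all subset genes were added, and list members outside this rule are given for contrast. The members and lists were chosen with earlier results of these data known. Trgc1, Trgc2, Trgc4 and Znf683 were not found among the symbols. Gene positions are from GENCODE vM21 (388 of 389 identifiers matched). The calls were also run on simulated counts drawn under the same counting model, which cannot test spread between barcodes or libraries. Python 3.11.15, numpy 2.4.6, scipy 1.17.1, pandas 2.3.3, scikit-learn 1.9.0 and matplotlib 3.10.9 were used.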

Additional observations from a re-analysis of the deposited data

Results flagged for a closer look

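Among the named genes of each comparison, 16 entries moved in opposite directions between the weeks in the control and SOX17KO libraries. Each had a counting interval that excluded equal levels, and Mptx1 and Saa3 were each entered in 2 comparisons. Other genes were not screened, and Ifng and Ccl3 in the full T cell gate, given above, also had opposite signs. The differences between genotypes were not tested, as each library stands alone. Over all barcodes, the log2 ratio of 2 weeks over 1 week was -5.67 in control and 2.28 in SOX17KO for Mptx1, -5.14 and 1.23 for Spink4, both epithelial genes with 0 UMIs in control at 2 weeks, and -2.15 and 0.75 for the collagenase gene Mmp13. In the T cell gate Il13, a type 2 cytokine, had 3.46 and -1.16, and Retnla had -2.73 and 1.18, with 69.6% and 60.2% of its control UMIs in 1 barcode at each time. In the monocyte or macrophage gate the ratios were -3.45 and 3.66 for Mptx1 (54.2% of its control UMIs at 1 week in 1 barcode), -1.72 and 0.99 for Tnfrsf4, and -1.52 and 0.42 for Il2ra. In neutrophils they were -1.503 and 1.40 for Rgs1, 1.001 and -2.498 for Saa3 (51.2% of its control UMIs at 2 weeks in 1 of 4 barcodes), and 2.63 and -1.46 for Hspa1b. In conventional dendritic cells Ccl7 had -1.83 and 1.41, with 67.4% and 91.7% of its control UMIs in 1 barcode. In the fibroblast gate Gzmb had 5.20 and -1.34 (94.1% of its 17 control UMIs at 1 week in 1 barcode), Bdkrb2 -3.32 and 0.76, Lgr5, a stem cell gene, -2.67 and 2.23, and Saa3 1.497 and -1.56, with 71.98% of the Saa3 UMIs in control at 2 weeks in 1 barcode.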

How the results depend on the processing

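No paired analysis was possible because each time point is 1 library. Of 87 alternative values for shares and counts of genes, 67 stayed near the reported one. Leaving out barcodes with a monocyte or macrophage panel UMI, an alternative chosen after seeing the data, which drops such barcodes by construction, gave log2 odds of 5.59 for T cells, 0.92 for NK cells, 0.52 for conventional dendritic cells and 0.15 for neutrophils, a reversal. A stricter gate (3 panel genes, 2 more than any other) gave 4.97 for T cells and -2.50 for monocytes or macrophages; thinning before gating gave -2.08 for monocytes or macrophages, -0.99 for neutrophils and 0.55 for conventional dendritic cells; at least 500 genes gave -0.75 for neutrophils. Over all barcodes a 1.5-fold limit called 4786 genes higher and 2455 lower, and a 4-fold limit 826 and 225. In T cells the restricted gate called 855 and 383 against 1426 and 933, and a minimum of 200 UMIs called 525 lower. In monocytes or macrophages a minimum of 10 UMIs called 401 higher, and one of 200 UMIs 99 higher and 167 lower. List medians that changed sign, for which the cause was not tested, lay mostly near 0. In the restricted T cell gate they were 0.27 for class II presentation, -0.093 for tissue residency, 1.02 for T cell attractants and 0.016 for lipid-associated genes. In NK cells the cytotoxic median was -0.0065 without doublets, -0.15 under median-ratio scaling and -0.25 in the restricted gate, where interferon-gamma genes had 0.16, class I presentation 0.032, immediate early genes 0.12 and costimulatory genes -0.17. In monocytes or macrophages naive genes had -0.068 at a limit of 5% mitochondrial UMIs, -0.15 without doublets and -0.0097 under median-ratio scaling; acute-phase genes had -0.016 at 5%; proliferation genes had -0.063 at 5% and -0.25 without doublets; costimulatory genes had -0.27 without doublets and -0.054 under median-ratio scaling. Type 17 genes over all barcodes had 0.060 at 5%. The Ly6c2 share had a log2 odds ratio of -0.25 unthinned. The 70 restricted T cell barcodes at 1 week limit what can be seen of rare T cell genes.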

Other observations

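Genes outside the comparisons above also differed in the full T cell gate, where macrophage RNA was present. Il13 had 4 UMIs at 1 week and 377 at 2 weeks (log2 3.46, 2.09 to 5.34), and Il4 had 3 and 308 UMIs. Both encode type 2 cytokines. At 2 weeks the Il13 UMIs lay in 35 barcodes, 32.6% of them in 1, and the Il4 UMIs in 25, 34.4% in 1. The 3 Il4 UMIs at 1 week lay in 1 barcode. In the restricted gate, of 4 type 2 list genes measured, Il4 and Il13 were past the fold higher and Il1rl1 lower. Il22, a cytokine that acts on epithelium, had 73 UMIs at 1 week in 5 barcodes, 71.2% of them in 1, and 2 UMIs at 2 weeks. Serpine2, a protease inhibitor gene, had 1 and 1582 UMIs (log2 7.52, 5.04 to 12.83). In the neutrophil gate the 10 measured mitochondrially encoded genes had a median log2 ratio of -0.97, with 4 past the fold lower, but in the restricted neutrophil gate the 8 measured had a median of 0.18 and none was past the fold. In the monocyte or macrophage gate the 11 measured had a median of 0.11 with none past the fold.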
